A study of Mus musculus with 3647 samples.

Results

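Among 95 Patch-seq libraries of the mouse thalamic reticular nucleus (TRN), 38 held RNA of microglial genes and 39 held none of it, by a rule on 3 genes. The genes were C1qa and C1qb, which encode chains of the complement protein C1q, and Ctss, which encodes the lysosomal protease cathepsin S. A library was placed on the side with microglial RNA when at least 2 of the 3 were above 0, and on the side without it when none was. The other 18 libraries had exactly 1 of them above 0 and stood on neither side. The sides were therefore chosen by measured values of these 3 genes, which are described below and support nothing.

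The series holds 3647 samples of mouse brain, each 1 nucleus or 1 cell, made into full-length cDNA libraries, and the 95 Patch-seq libraries are its recorded neurons. In Patch-seq, the content of a neuron is drawn into the glass pipette that records it, so the pipette passes through the surrounding tissue before and after it takes the RNA. The labels of these libraries give the TRN as source and no sort, name no strain, sex, age, genotype, treatment or animal, and call the RNA nuclear, as they do for the sorted nuclei. Expression was deposited as TPM, a transcript's share of all transcripts of its library, which sum to the same total in every library.

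Microglia are the resident macrophages of the brain. They survey the tissue with fine processes through receptors such as P2ry12 and Cx3cr1, tag and engulf material with the help of complement, and signal through the adaptors Tyrobp and Fcer1g. After injury they move towards the damage, shift from this surveying state and release cytokines and chemokines. TRN neurons are GABAergic cells that inhibit the thalamus.

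The libraries were read in batches taken from their names, and batch 3 gathers several forms of name that were not compared with each other. Batch 1 had 7 libraries, batch 2 had 34 and batch 3 had 54. Microglial RNA by the rule was found in 6 of the 7 libraries of batch 1, in 12 of 34 in batch 2 and in 20 of 54 in batch 3. No library of batch 1 lacked all 3 genes, so batch 1 could not be compared and is described beside the others. The side without microglial RNA had 16 libraries in batch 2 and 23 in batch 3. No library repeated another, and library numbers below only name a library within its batch. Read depth cannot be had from TPM, and the number of genes above 0, the detected genes, stands in for it. Since each library is 1 cell and the labels name no animal, each side counts as 1 sample: there is no replicate check, and no p-value or standard error is given.

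The neuronal label held on both sides. Gad1 or Gad2, which encode the enzymes that make GABA, was above 0 in 38 of 38 libraries with microglial RNA, in 38 of 39 without it and in 16 of 18 on neither side. Snap25, a protein of the synaptic release machinery, was above 0 in all 38 libraries with microglial RNA and in 38 of 39 without it. Six3, a transcription factor of TRN neurons, was above 0 in 35 of 38 and 32 of 39 libraries. Pvalb, the calcium-binding protein parvalbumin, was above 0 in 35 of 38 and 34 of 39. The libraries with microglial genes were thus still libraries with neuronal RNA. Slc17a6, the vesicular glutamate transporter of thalamic relay cells, was above 0 in 7 of 38 libraries with microglial RNA, 4 of 39 without it and 4 of 18 on neither side.

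The 3 genes of the rule lie on the mouse genome (GRCm38) at chr4:136895917-136898803 (C1qa), chr4:136880129-136886187 (C1qb) and chr3:95526786-95556403 (Ctss). As a description, C1qb reached 5489 TPM in batch 2 and 3991 TPM in batch 3, with medians of 495.7 TPM and 151.2 TPM over the libraries with microglial RNA. C1qa had medians of 252.9 TPM in batch 2 and 117.9 TPM in batch 3, and Ctss of 227.3 TPM and 131.7 TPM. Of the 38 libraries, 22 had all 3 genes above 0 and 16 had exactly 2. On the other side of the threshold, the libraries with exactly 1 gene had at most 0.86 TPM of C1qa, 4.45 TPM of C1qb and 405.2 TPM of Ctss in batch 2. In batch 3 these highest values were 2013 TPM, 85.9 TPM and 397.7 TPM, so a single rule gene could be as abundant as in libraries past the threshold. The rule also depends on detection. The libraries with exactly 1 gene had a median of 3327 detected genes, against 6773 for those with none, 7014 for those with exactly 2 and 7203 for those with all 3.

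Detected genes differed between the sides by less than their range. In batch 2 the 12 libraries with microglial RNA had 1321 to 13161 detected genes with a median of 9655, and the 16 without it had 2657 to 11742 with a median of 9055. In batch 3 the 20 with it had up to 10434 with a median of 6029, and the 23 without it had up to 10210 with a median of 5233. The means differed by 623.8 genes in batch 2 and by 1041.9 in batch 3, higher with microglial RNA in both, and the ranges overlapped almost completely.

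**Figure D1:**
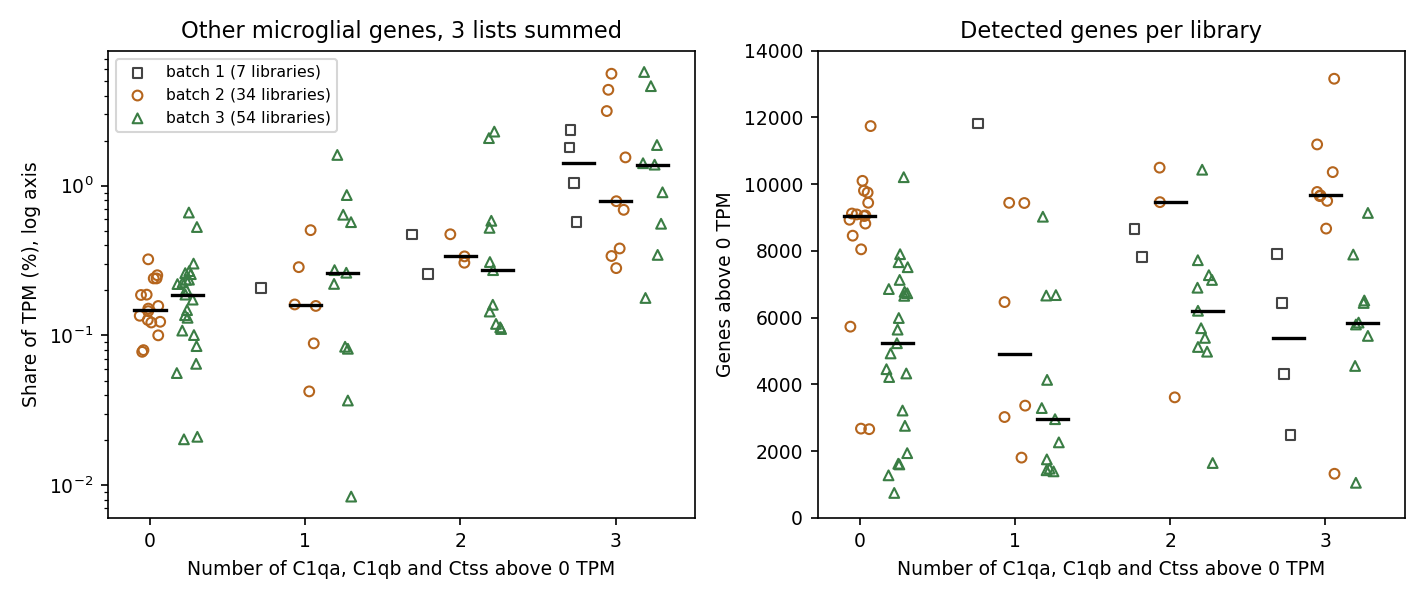
Left, summed share of TPM of the 3 microglial lists, which leave out the rule genes, against the number of rule genes above 0 (1 point per library, log axis). Right, detected genes on the same x axis. Black bars are medians of groups of at least 3 libraries. Over all batches the median share goes from 0.157% with 0 rule genes to 1.22% with all 3, while the median of detected genes is lowest (3327) with exactly 1.

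Single nuclei of the same tissue, sorted on the neuronal protein NeuN, give a comparison for the rule. At least 2 of the 3 genes were above 0 in 2 such nuclei, a share of 0.266% (95% exact Clopper-Pearson interval 0.0322 to 0.956%), against 40% of the Patch-seq libraries (30.1 to 50.6%). All 3 were above 0 in 0 nuclei, which allows a share of up to 0.398% when set at 3 counts of the total (the exact interval reaches 0.489%), and in 23.2% of the Patch-seq libraries. The nuclei had a median of 4983 detected genes. These intervals cover counting error only. The nuclei were sorted and the Patch-seq libraries were not, and how they were collected and any difference in depth cannot be told apart here.

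For every other gene, the difference is that of the mean log2(TPM + 1), with minus without microglial RNA, taken within batch 2 and within batch 3 and averaged. A gene was measured when it was above 0 in at least 10 of the 95 libraries, which left 13171 genes. A gene was called higher or lower when its difference reached 1 on this log2 scale, a fold of 2, with the same sign in both batches. The spread between libraries was wide: the SD of log2(TPM + 1) between libraries of 1 side and batch had a median of 2.38 over the measured genes. The threshold was therefore well inside the spread of most genes, and 6.80% of all measured genes were called higher and 2.10% lower. These shares serve as the background against which each list is read, and not as a measure of how many genes changed. The median difference over all measured genes was 0.18, with 0.04 in batch 2 and 0.28 in batch 3, and each difference below is to be read against it. Of the called genes 76.4% were higher. That share was 52.8% after each batch was centred on its median gene, 57.4% for the ratio of mean TPM and 44.98% with detected genes as a covariate.

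A stricter criterion, added after the values were seen, asked for a difference larger than the gene's own SD between libraries. By it 36 genes (0.273% of all measured genes) were higher with microglial RNA and 0 (0.00%) were lower. Of the 36, 16 were in the 3 microglial lists and 2 in the list of microglial activation. The other 18 were in no list. Cyba, a subunit of the phagocyte NADPH oxidase, and Unc93b1, which carries endosomal Toll-like receptors, were among them. So were Pycard, the adaptor of inflammasomes, and Ifi30, a lysosomal thiol reductase of antigen processing. The remaining ones were Sepp1, Trf, Sparc, Rhog, Gng10, Clic1, Zfp36l1, Cmtm7, Pabpc1, Ptprj, Vamp8, Hpgd, Ptpn18 and Ss18.

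The receptor and signalling genes of microglia gave the largest differences. Of 29 genes of this list, 25 were measured, 21 were higher (against 6.80% of all measured genes) and none was lower, with a median difference of 2.43. A gene seen mainly on 1 side can pass the filter through that side alone, so the values of all genes of a list, measured or not, are given beside such lists: here 22 of 29 were higher with a median of 2.14. The 4 that were not measured were P2ry6, Ptprc, Itgb2 and Ltc4s.

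Tyrobp, the adaptor through which Trem2 and other myeloid receptors signal (chr7:30413760-30417585), had the largest difference of all genes. It was above 0 in 29 of 38 libraries with microglial RNA and in 1 of 39 without it. In batch 2 it ran from 0 to 2975 TPM with a median of 293.7 TPM with microglial RNA, and was 0 in all 16 libraries without it. In batch 3 it ran from 0 to 4655 TPM with a median of 39.8 TPM, and in the libraries without microglial RNA it was above 0 only in library 28, at 465.65 TPM. The 6 libraries of batch 1 all had Tyrobp, from 172.2 to 663.3 TPM. The difference was 7.80 in batch 2 and 4.54 in batch 3, with a mean of 6.17 and an SD between libraries of 2.95.

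Fcer1g, the gamma chain of Fc receptors (chr1:171229572-171234365), was above 0 in 26 of 38 and 1 of 39 libraries, and its difference was 5.0. C1qc, which encodes the third chain of C1q and was not used by the rule (chr4:136889804-136893065), was above 0 in 27 of 38 and 2 of 39. With microglial RNA C1qc reached 1055.2 TPM in batch 2 and 3117 TPM in batch 3, and without it 2.98 TPM and 16.2 TPM. Most libraries without microglial RNA thus lacked the partner chain too. Its difference was 4.95. Laptm5, a lysosomal membrane protein of blood-derived and microglial cells, had a difference of 4.85 and was above 0 in 28 of 38 and 2 of 39 libraries.

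P2ry12, the ADP receptor that guides microglial processes to injury (chr3:59216272-59262871), was above 0 in 24 of 38 libraries with microglial RNA and in none of the 39 without it. In batch 2 its median was 58.7 TPM and its highest value 1172.7 TPM, and in batch 3 these were 16.025 TPM and 1382 TPM. Libraries of both sides overlapped at 0. The difference was 4.54. Tmem119, a surface protein specific to resident microglia, was above 0 in 11 of 38 and in none of 39 libraries, with a difference of 1.84. Csf1r, the receptor microglia need to survive, was above 0 in 16 of 38 and 2 of 39, with a difference of 2.67. Trem2, a lipid-sensing receptor, was above 0 in 19 of 38 and 2 of 39, with a difference of 3.41. Siglech and Fcrls, surface proteins of resident microglia, had differences of 2.41 and 3.74.

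Cx3cr1, the receptor for the neuronal chemokine fractalkine, differed in level more than in detection. It was above 0 in 34 of 38 libraries with microglial RNA and in 28 of 39 without it. In batch 2 the libraries without it had at most 6.22 TPM, against a median of 23.2 TPM and a highest value of 1434 TPM with it. In batch 3 the highest values were 24.5 TPM without and 1370 TPM with it. Low values of Cx3cr1 were also common in NeuN-sorted nuclei, where it was above 0 in 30.4%, so a value above 0 alone did not mark the microglial side. P2ry12 was above 0 in 3.05% of the nuclei and Tyrobp in 0.133%.

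**Figure D2:**
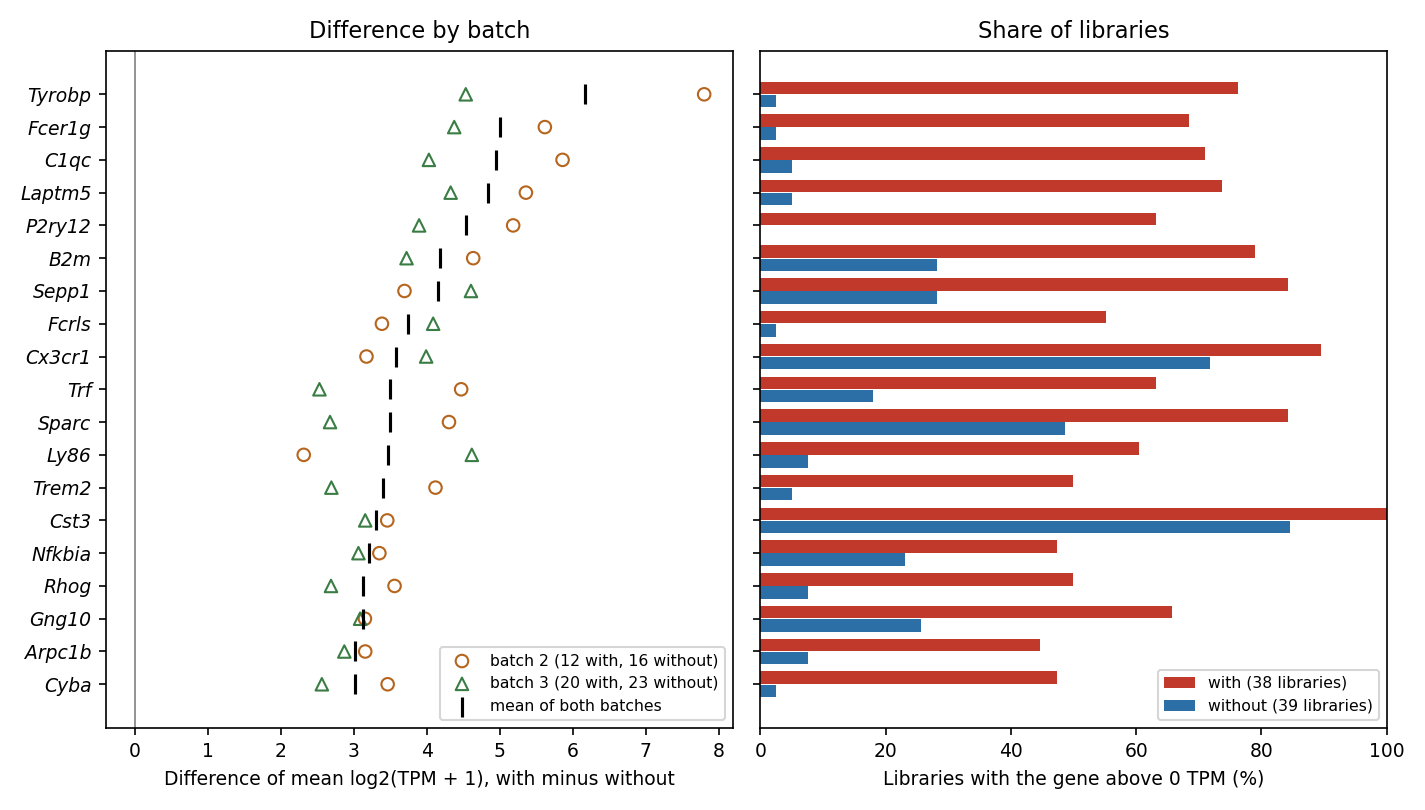
Of the 20 called genes with the largest mean difference, 19 are drawn. Left, the difference of mean log2(TPM + 1) within batch 2 (circles) and batch 3 (triangles) and their mean (ticks). Right, the percentage of libraries on each side with the gene above 0 TPM. All 19 lie above 0 in both batches, from Tyrobp at 6.17 to Cyba at 3.02, and P2ry12 has no bar for the libraries without microglial RNA.

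Promoters of the leading genes are shown because these genes varied together across libraries. RefSeq windows on GRCm38.p6 run from 250 bases before to 50 after the start of the gene, written 5′ to 3′ on the strand of the gene. Capitals mark GAGGAA or its reverse complement TTCCTC, a core that the myeloid factor PU.1 binds. The windows are those of Fcer1g (chr1:171234300-171234599, minus strand), C1qc (chr4:136892865-136893164, minus strand), Laptm5 (chr4:130913066-130913365, plus strand) and P2ry12 (chr3:59262936-59263235, minus strand).
Fcer1g: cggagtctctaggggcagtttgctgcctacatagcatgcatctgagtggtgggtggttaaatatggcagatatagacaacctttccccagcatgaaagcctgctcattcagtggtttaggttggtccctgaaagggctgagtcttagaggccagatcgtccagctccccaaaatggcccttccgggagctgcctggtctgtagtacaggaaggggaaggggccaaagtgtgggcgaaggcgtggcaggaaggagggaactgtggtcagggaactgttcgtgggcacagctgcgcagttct
C1qc: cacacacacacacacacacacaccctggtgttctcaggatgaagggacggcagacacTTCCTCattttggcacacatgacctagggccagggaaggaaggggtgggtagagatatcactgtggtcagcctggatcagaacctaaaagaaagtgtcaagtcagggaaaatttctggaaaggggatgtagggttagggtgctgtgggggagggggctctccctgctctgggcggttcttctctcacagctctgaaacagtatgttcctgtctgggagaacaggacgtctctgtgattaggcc
Laptm5: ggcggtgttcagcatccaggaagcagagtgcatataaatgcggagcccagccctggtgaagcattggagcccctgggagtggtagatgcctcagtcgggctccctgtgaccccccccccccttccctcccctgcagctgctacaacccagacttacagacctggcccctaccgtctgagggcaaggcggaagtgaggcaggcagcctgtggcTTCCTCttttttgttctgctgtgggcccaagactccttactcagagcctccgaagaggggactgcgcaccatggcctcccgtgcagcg
P2ry12: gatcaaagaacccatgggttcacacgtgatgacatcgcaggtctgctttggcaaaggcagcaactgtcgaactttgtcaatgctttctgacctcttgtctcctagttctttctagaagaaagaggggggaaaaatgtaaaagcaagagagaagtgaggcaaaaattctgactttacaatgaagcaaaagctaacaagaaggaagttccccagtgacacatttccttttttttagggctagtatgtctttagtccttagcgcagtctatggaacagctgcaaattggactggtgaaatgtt
One of these 6-letter runs stood in the window of C1qc and of Laptm5, and none in those of Fcer1g and P2ry12. Among the 20 genes with the largest differences, 16 had a window in the table and 8 of them (50%) held GAGGAA on either strand, against 31.3% of 27025 genes. Of the microglial list genes called higher, 28 had a window and 16 (57.1%) held it. A match is a run of letters and not a binding site.

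Genes of the microglial lysosome and secreted proteins followed. All 11 were measured, 9 were higher (against 6.80% of all measured genes) and none was lower, with a median difference of 1.85. Cst3, the protease inhibitor cystatin C, was the most abundant gene of the list. In batch 2 it ran from 960.75 to 30307 TPM with a median of 2689 TPM with microglial RNA, and from 0 to 1121.3 TPM with a median of 610.4 TPM without it. In batch 3 the medians were 932.955 and 512.6 TPM and the ranges overlapped. Its difference was 3.31. Astrocytes also express Cst3, and neurons express cathepsins, so these genes are less specific than the receptors. Ctsd, cathepsin D, had a difference of 2.80, and Ctsb and Ctsl, 2 other cathepsins, had 0.82 and 0.08 and were not called.

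Of the 14 nuclear and cytoplasmic genes of microglia 10 were measured. Of these 6 were higher (against 6.80% of all measured genes) and none was lower, with a median difference of 1.28. With no filter 6 of 13 in the table were higher and the median was 0.72. Irf8, a transcription factor of the myeloid lineage, was above 0 in 13 of 38 libraries with microglial RNA and in none of 39 without it. Aif1, the calcium-binding protein Iba1 used to stain microglia, was above 0 in 18 of 38 and 1 of 39, with a difference of 2.92. Arpc1b, of the actin-branching complex, had a difference of 3.02. Sall1, a transcription factor that sets microglial identity, was above 0 in 6 of 38 and 4 of 39 and had a difference of 0.17.

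Taking the 3 lists together, microglial genes made up 0.282 to 5.59% of TPM with a median of 0.582% in the 12 libraries of batch 2 with microglial RNA. The 16 without it had 0.0778 to 0.323% with a median of 0.148%. In batch 3 the 20 with it had 0.110 to 5.75% with a median of 0.540%, and the 23 without it 0.0203 to 0.662% with a median of 0.187%. The 6 libraries of batch 1 had 0.258 to 2.35%. In batch 2, 10 of the 12 libraries lay above the highest library without microglial RNA, and in batch 3, 8 of the 20 did. The share was over 1% in 14 of 38 libraries with microglial RNA, in 0 of 39 without it and in 1 of 18 on neither side. Libraries with 2 of the rule genes had a median of 0.308%, and those with all 3 had 1.22%. More microglial cells or fragments and more RNA from each cannot be told apart in these shares. The number of the 53 list genes above 0 had a median of 23 (9 to 51) with microglial RNA and of 12 (2 to 24) without it.

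The side without microglial RNA was not wholly free of it. From the receptor and signalling list, 8 genes were looked up by library after their values were seen. Some libraries held 1 of them. Library 16 of batch 3 had 255.2 TPM of Fcer1g, and library 10 of batch 2 had 344.6 TPM of Ly86. Library 34 of batch 3 held 5 (Laptm5, Fcrls, Trem2, Csf1r and Ly86), at 11.35 to 65.1 TPM.

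Genes of microglial activation were mixed. Of 19 genes 14 were measured, 8 were higher (against 6.80% of all measured genes) and none was lower, with a median difference of 1.15. With no filter 8 of 19 were higher with a median of 0.76. B2m, the light chain of class I molecules, led with a difference of 4.18. In batch 2 it ran from 0 to 6985 TPM with a median of 115.06 TPM with microglial RNA, against 0 to 131.4 TPM with a median of 0 without it. H2-D1, a class I heavy chain, had a difference of 1.33. Ftl1 and Fth1, the ferritin chains that store iron, had 1.55 and 1.05. Apoe, the lipid carrier of astrocytes and activated microglia, had 1.30 with an SD of 3.95. The genes that mark the disease-associated state most sharply were scarce: Cst7, Itgax, Clec7a, Lgals3 and Ch25h were above 0 in fewer than 10 of the 95 libraries. Axl, Lpl and Gpnmb were measured and not called, at 0.34, 0.70 and -0.15. Spp1, which is also a gene of some TRN neurons and was listed as such, was above 0 in 18 of 38 libraries with microglial RNA and 18 of 39 without it, with a difference of 0.27.

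Cytokine and chemokine genes were detected more often beside microglial RNA. Of 16 genes 7 were measured and 7 were higher (against 6.80% of all measured genes), with a median difference of 2.07. Several passed the filter almost only through the libraries with microglial RNA, and with no filter 9 of 16 were higher with a median of 1.19. None of the 7 differences exceeded the SD between libraries, and in batch 3 the median with microglial RNA was 0 for all of them but Nfkbia. Il1a, which encodes the alarm cytokine interleukin 1 alpha, was above 0 in 13 of 38 and 1 of 39 libraries. Ccl4, a chemokine that attracts monocytes, was above 0 in 11 of 38 and 0 of 39. Ccl3, its close relative, was above 0 in 10 of 38 and 1 of 39, and Ccl12 in 8 of 38 and 1 of 39. Nfkbia, the inhibitor of NF-kappaB that is induced by it, had the largest difference of the list, 3.21, and was above 0 in 18 of 38 and 9 of 39 libraries.

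Of the 11 secreted factors on the list, at least 1 was above 0 in 23 of 38 libraries with microglial RNA (60.5%) and in 4 of 39 without it (10.3%). At least 3 were above 0 in 10 of the 38 and in 0 of the 39. By batch, at least 1 was above 0 in 3 of 6 libraries of batch 1, in 8 of 12 against 3 of 16 in batch 2, and in 12 of 20 against 1 of 23 in batch 3. Thus 15 libraries with microglial RNA had none of these factors.

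In 3 libraries the list exceeded 1% of TPM, all on the side with microglial RNA. Library 16 of batch 2 had 3.55%, with 16008 TPM of Nfkbia, 10210 TPM of Ccl12 and 5122 TPM of Ccl3. It had only 1321 detected genes, and microglial genes made up 5.59% of its TPM. Library 4 of batch 3 had 1.38% over 9139 detected genes, with 2350 TPM of Ccl12, 2186 TPM of Ccl2, 1426 TPM of Il1a and 891.96 TPM of Tnf. It held 51 of the 53 microglial genes, at 5.75% of TPM, the highest share of all 95 libraries. Library 21 of batch 3 had 1.01%, with 2721 TPM of Ccl4. Without these 3 libraries 4 of the 7 cytokine genes were still called higher, with a median of 1.73.

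Among the libraries with microglial RNA, the cytokine share and the microglial share moved together, with a Spearman correlation of 0.83 over 12 libraries in batch 2 and of 0.72 over 20 in batch 3. These are descriptions over cells that share batches and a fixed TPM total. The interferon response list had 4 of 11 genes measured and a median difference of 0.46 (0.31 over all 11). Its 1 gene called higher (against 6.80% of all measured genes) was Ifitm3, at 1.38.

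Markers of other blood-borne or border cells were few. Of 10 genes of macrophages at the brain's borders, 8 were not measured, Mrc1, Pf4 and Lyve1 among them, and Stab1 and Cd163 were not called. Of 12 genes of other leukocytes 2 were measured and 1 was higher (against 6.80% of all measured genes). With no filter 1 of 9 was higher, with a median of 0.15. The higher gene, S100a9, a neutrophil protein, was above 0 in 7 of 38 and 0 of 39 libraries with a difference of 1.29. It thus passed the filter without any library of the side without microglial RNA, and its partner S100a8 was not measured. Ccr2, a monocyte receptor, had 0.13.

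Red blood cell RNA was present on both sides. Hba-a1, a chain of haemoglobin, was above 0 in 35 of 38 libraries with microglial RNA and in 30 of 39 without it. In batch 2 its medians were 121.4 TPM with and 106.98 TPM without microglial RNA, and in batch 3 they were 401.75 TPM and 164.6 TPM. The highest value of all was on the side without, at 43191 TPM, against 30620 TPM with it. Its difference was 1.09, with -0.04 in batch 2 and 2.22 in batch 3, and it was not called. Of 4 measured genes of this list 1 was higher (Hbb-b2, 1.12), against 6.80% of all measured genes. The list had a median difference of 0.84 (0.43 in batch 2 and 1.28 in batch 3). With no filter 2 of 8 were higher and the median was 0.53, and in libraries at or above the batch median of detected genes 3 of the 4 were higher with a median of 1.77. The summed red cell share lay above the median of the side without in 7 of 12 libraries with microglial RNA in batch 2 and in 16 of 20 in batch 3. Red cell genes exceeded 1% of TPM in 3 of 38 libraries with microglial RNA, 3 of 39 without it and 2 of 18 on neither side. With TPM rescaled to a total without microglial and red cell genes, 7.19% of all measured genes were higher and 2.05% lower. The part of red cell RNA in the other differences was not tested beyond this and leaving out those libraries. Hbb-b1 and Hbb-b2 are near copies, and reads could be split between them.

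Astrocyte genes had smaller differences than the microglial ones. Of 18 measured genes 4 were higher (against 6.80% of all measured genes) and none was lower, with a median difference of 0.54. They were Glul, glutamine synthetase (1.69), Gjb6, connexin 30 (1.23), Slc1a3, a glutamate transporter (1.21), and Agt, angiotensinogen (1.00). Slc1a3 was above 0 in 14 of 38 and 3 of 39 libraries. Aqp4, the water channel of astrocytic endfeet, had 0.29 and Aldoc had -0.81, and neither was called. The summed astrocyte share had medians of 0.111% and 0.0956% in batch 2 and of 0.0907% and 0.0794% in batch 3, with and without microglial RNA. In libraries at or above the batch median of detected genes the list median was 0.01.

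Oligodendrocyte genes had a list median of 1.55 in batch 2 and of 0.03 in batch 3. Their summed share differed in both: the ratio of its medians, with over without microglial RNA, was 2.94 in batch 2 and 2.71 in batch 3. This share lay above the median of the side without in 8 of 12 libraries in batch 2 and in 16 of 20 in batch 3. Of 10 measured genes 4 were higher (against 6.80% of all measured genes), among them Mobp (1.54), Cnp (1.51) and Mbp (1.25), all of myelin. Mbp, myelin basic protein, was above 0 in nearly all libraries, with medians of 2507 TPM with and 850 TPM without microglial RNA in batch 2, and of 3286 and 926.6 TPM in batch 3. Mag and Mog, other myelin proteins, were 1.57 and 2.12 in batch 2 and -0.97 and -1.27 in batch 3. None of the measured genes of oligodendrocyte precursors, endothelial cells, pericytes and smooth muscle or ependyma and choroid was called. Their measured genes numbered 4, 2, 3 and 3, since most genes of these lists, Cldn5 and Pdgfra among them, were above 0 in fewer than 10 libraries.

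**Figure D3:**
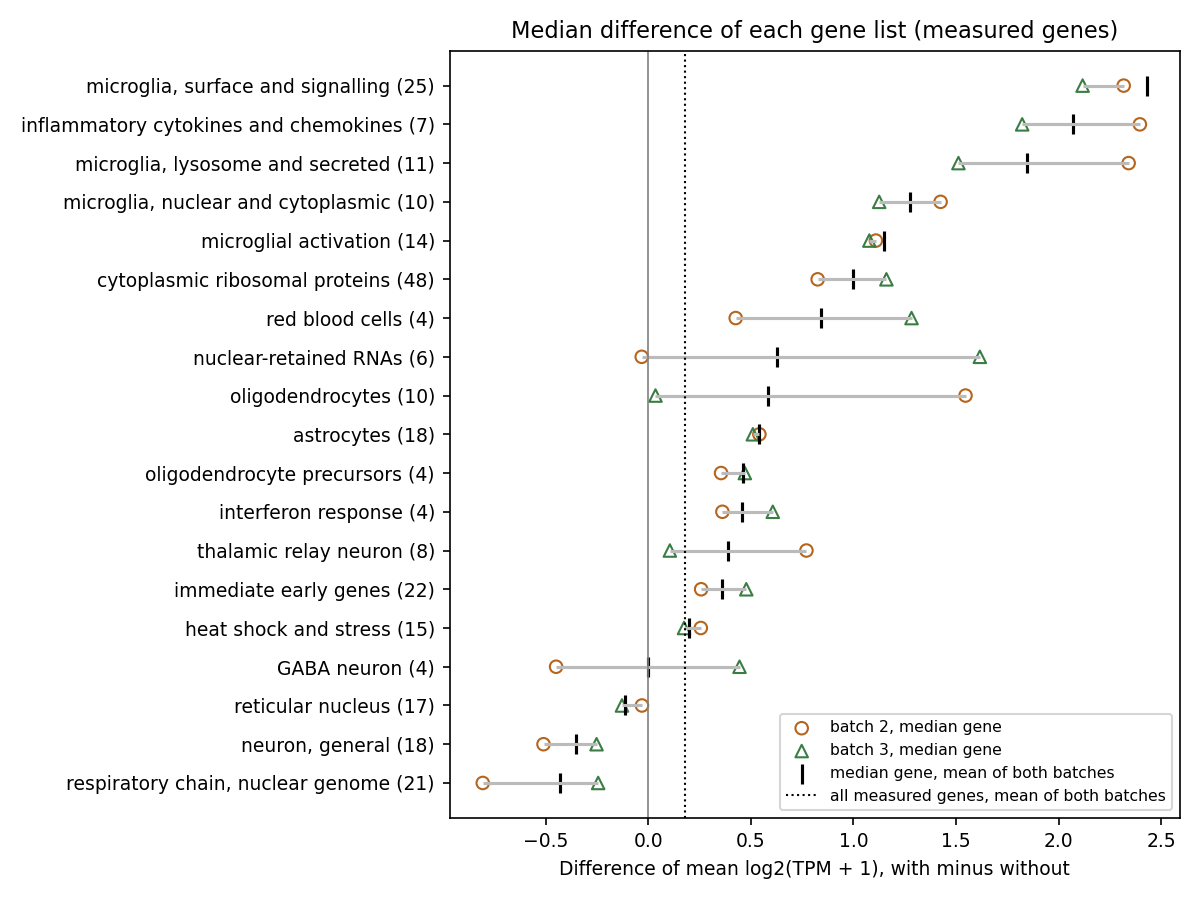
Median difference of each list with at least 4 measured genes (number in brackets), within batch 2, within batch 3 and of the genes' means over both. The dotted line is the median of all measured genes. By the mean of both batches the microglial receptor, cytokine and microglial lysosome lists have the largest medians (2.43, 2.07 and 1.85), and the general neuronal and respiratory chain lists lie left of the line. The nuclear-retained list in batch 3 (1.62) and the oligodendrocyte list in batch 2 (1.55) exceed some microglial lists in the same batch.

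Neuronal genes were somewhat lower with microglial RNA, within a wide spread. Of 18 general neuronal genes all were measured, 3 were lower (against 2.10% of all measured genes) and none was higher, with a median difference of -0.35. Stmn2, a microtubule regulator of axons, had -1.87. It was above 0 in all 39 libraries without microglial RNA and in 32 of 38 with it, with medians of 249.8 TPM with and 417.6 TPM without in batch 2 and of 137.045 and 325.9 TPM in batch 3. Tubb3, neuronal tubulin, had -1.36 and Nefl, the light neurofilament chain, had -1.19. The SD between libraries was larger than the difference for all 3. Snap25 had -0.57 in both batches and Syt1, a calcium sensor of release, had -0.03.

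The summed neuronal share had a median of 0.885% with and 1.25% without microglial RNA in batch 2, and of 0.510% and 0.882% in batch 3. It lay below the median of the side without in 9 of 12 libraries with microglial RNA in batch 2 and in 14 of 20 in batch 3. In TPM a larger share of microglial or ribosomal RNA lowers all other shares. With TPM rescaled to a total without microglial and red cell genes, 3 neuronal genes were lower and the list median was -0.34. The list median was -0.29 with rule genes counted from 1 TPM. With detected genes as a covariate it was -0.51, with 6 genes lower. With all 3 rule genes required it was -0.76, with 5 lower. The part of ribosomal RNA in the lower neuronal shares was not tested.

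GABA genes did not stand apart: of 4 measured none was called, with a median difference of 0.00 (-0.45 in batch 2 and 0.44 in batch 3). Gad1 had medians of 1441 TPM with and 1658 TPM without microglial RNA in batch 2, and of 781.065 and 836.1 TPM in batch 3. Of 17 genes of reticular neurons 2 were higher and 1 lower (against 6.80% and 2.10% of all measured genes), with a median of -0.11. The higher ones were Cacna1i (1.34) and Cacna1h (1.19), T-type calcium channels of burst firing. The lower one was Trh (-1.26), which encodes a releasing hormone. These counts changed with depth settings. With detected genes as a covariate 0 were higher and 2 lower, with a median of -0.44. In libraries at or above the batch median of detected genes 1 was higher and 5 lower (-0.33). Without libraries under 2000 detected genes 1 was higher and 0 lower (-0.003). Ecel1, a marker of 1 end of the gradient among TRN neurons, was above 0 in 15 of 38 and 20 of 39 libraries. Of 8 thalamic relay genes 1 was higher (against 6.80% of all measured genes). It was Rora, a nuclear receptor (1.02), and its ratio of mean TPM had the opposite sign (-0.04).

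Of the 20 called genes that were lowest with microglial RNA, none was beyond its SD. They ran from Necap1 at -2.12, a protein of clathrin-coated vesicles, to Dimt1 at -1.70. Besides Stmn2 they held Calm2, calmodulin, at -1.72 and Scg2, a granin of dense-core vesicles, at -1.78. Calm2 had -0.71 in batch 2 and -2.73 in batch 3. They also held Gm1943, Yipf4, Nanp, Pmm1, Strap, 1110001J03Rik, Hs3st1, Larp6, Aarsd1, Cnih, Zfp35, Txndc15, Mrps18a, Fto and Ankrd46, which were in no list.

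Immediate early genes, transcription factors and regulators induced within minutes by activity or stress, did not move as 1 group. Of 22 measured genes 7 were higher and 1 lower (against 6.80% and 2.10% of all measured genes), with a median difference of 0.36. Zfp36, which degrades cytokine mRNA, led with 2.23 and was above 0 in 17 of 38 and 5 of 39 libraries. Fosl2 (1.5), Egr1 (1.46), Ier2 (1.31), Atf3 (1.29), Junb (1.13) and Btg2 (1.13) were the others. Fos, the classic marker of neuronal activity, had -0.44, Npas4, an activity gene of neurons, had -0.69, and Arc, a synaptic one, was called lower at -1.17. Fos had medians of 190.8 TPM with and 83.2 TPM without microglial RNA in batch 2, and of 18.3 and 77.2 TPM in batch 3, so the order turned between batches. In libraries at or above the batch median of detected genes the list median was -0.14, with 1 gene higher and 3 lower, and Ier2 and Junb had -0.36 and -0.14.

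The summed early gene share had medians of 0.165% and 0.122% in batch 2 and of 0.119% and 0.0977% in batch 3, with and without microglial RNA. Its highest values were 1.31% in library 16 of batch 2 and 1.06% in library 4 of batch 3, both among the 3 libraries richest in cytokines. Without those 3 libraries 4 early genes were called higher and none lower. Of 15 measured heat shock and stress genes 3 were higher (against 6.80% of all measured genes). They were Sgk1 (1.37) and the metallothioneins Mt1 (1.27) and Mt2 (1.28), and without those 3 libraries none was higher.

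Cytoplasmic ribosomal protein genes were the largest group outside the microglial lists. All 48 were measured, 23 were higher (against 6.80% of all measured genes) and none was lower. The median difference was 1.00 (0.83 in batch 2 and 1.16 in batch 3). Rpl7 led with 2.13. In batch 2 Rpl7 ran from 142.1 to 1155.95 TPM with a median of 607.2 TPM with microglial RNA, and from 0 to 639.1 TPM with a median of 311.6 TPM without it. In batch 3 the medians were 197.75 and 100.8 TPM, and the ranges overlapped in both. Rps27 (-0.39) and Rpl27a (-0.30) had the smallest values. None of the 48 was beyond its SD. Ribosomal protein genes have many processed copies in the genome, and reads could be split among them.

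The summed ribosomal share had medians of 2.37% with and 1.65% without microglial RNA in batch 2 and of 1.14% and 0.941% in batch 3. In batch 2, 6 of 12 libraries with microglial RNA lay above the highest library without it, and in batch 3, 4 of 20 did. Among libraries with microglial RNA this share was higher where the microglial share was higher, with a Spearman correlation of 0.83 over 12 libraries in batch 2 and of 0.73 over 20 in batch 3. Without microglial RNA it was -0.16 over 16 and 0.40 over 23. The difference was smaller when libraries with exactly 1 rule gene were added to the side with microglial RNA: 8 of 48 were then higher and the median was 0.48. Whether these transcripts came from the neuron or from other cells was not tested.

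Of the nuclear-encoded genes of the respiratory chain all 21 were measured. Of these 3 were lower (against 2.10% of all measured genes) and none was higher. The median difference was -0.43 (-0.81 in batch 2 and -0.24 in batch 3). Cox5a had -1.28, Uqcrb -1.10 and Cox8a -1.02. The number called depended on the setting. None was called by the ratio of mean TPM or with rule genes counted from 1 TPM. The same held without libraries under 2000 detected genes or without those under 14 neuronal genes. More were lower in others: 7 with detected genes as a covariate (median -0.78) and 7 with all 3 rule genes required (median -0.69). In libraries at or above the batch median of detected genes 6 were lower, with a median of -0.78. Batch 3 alone had 3 higher and 4 lower. Without the libraries of batch 3 whose names start with M or cell, 1 was lower and the median was -0.12. Of 6 measured RNAs that stay in the nucleus 2 were higher (against 6.80% of all measured genes), Miat (1.27) and Mirg (1.07). Malat1 and Meg3 had 0.40 and 0.58. The median of this list was -0.03 in batch 2 and 1.62 in batch 3.

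**Figure D4:**
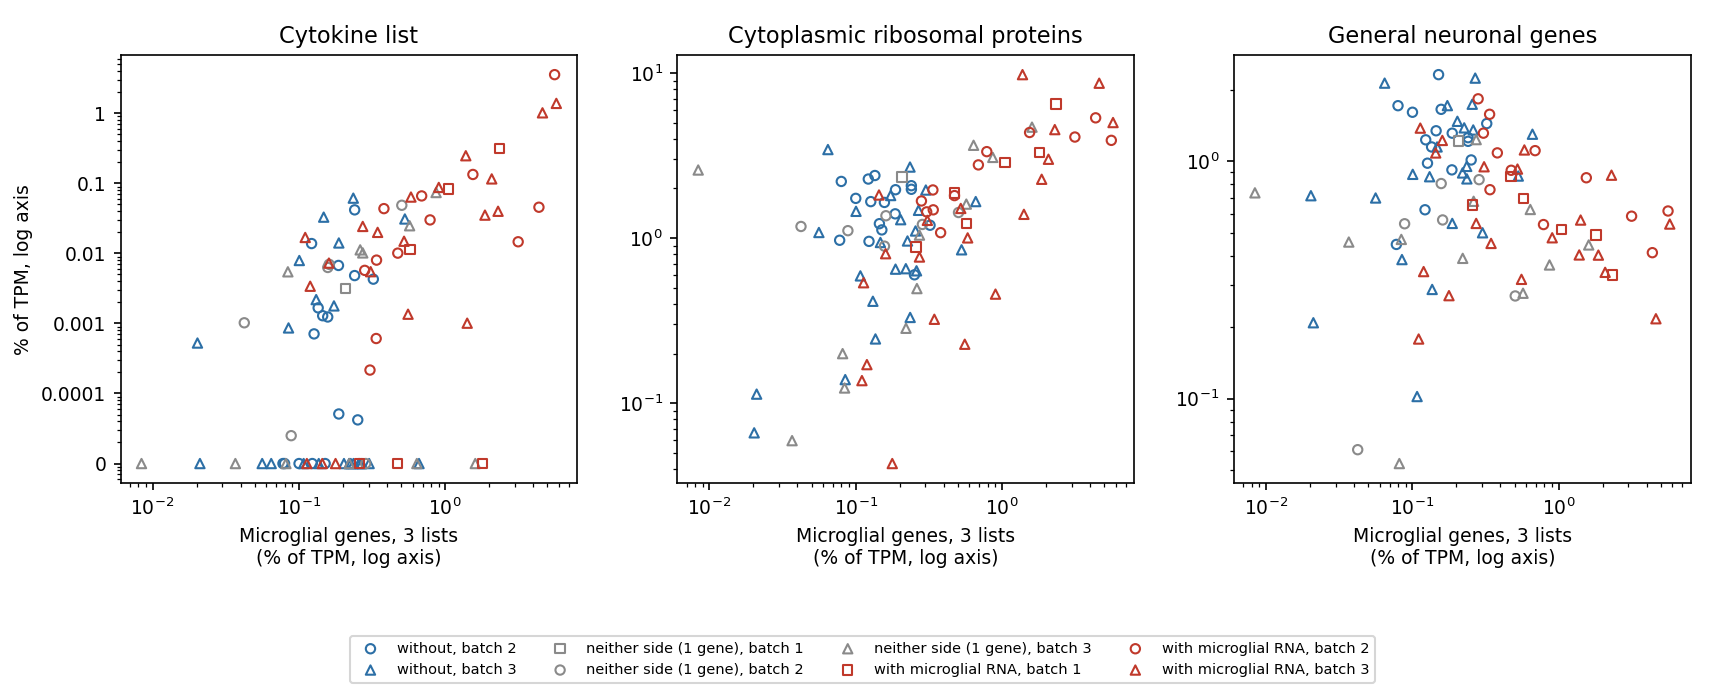
Share of TPM of the cytokine, ribosomal protein and general neuronal lists against the microglial share, 1 point per library, both axes logarithmic. Values of 0 are drawn at the foot of the first panel. The 3 libraries above 1% cytokine RNA (3.55%, 1.38% and 1.01%) are also among those with the highest microglial shares.

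As a description, the genes most like the mean log2(TPM + 1) of the 3 rule genes over all 95 libraries were ranked. This ranking uses the same values as the rule, so its overlap with the differences above is no separate result. Tyrobp came first with a Spearman correlation of 0.76, then C1qc (0.74), Laptm5 (0.72), Fcer1g (0.71) and P2ry12 (0.70). Fcrls (0.63), Sepp1 (0.62), Ly86 (0.61) and Trem2 (0.58) were also among them. Sepp1, the selenium carrier selenoprotein P, was in no list, was above 0 in 32 of 38 and 11 of 39 libraries, and had a difference of 4.15. Trf, transferrin, and Sparc, a matrix-binding protein, were in no list either, at 3.50 and 3.49. Trf is strongly expressed by oligodendrocytes, and its highest value, 2266 TPM, was in a library without microglial RNA.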

How the data were processed

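The build mm10 and, without role or order, Seurat 2.2.0, TopHat2 2.0.10, RSEM and Bowtie are named per the submitters' processing notes; the annotation was not given in the sources. The authors deposited the Patch-seq values as TPM for 23420 genes, and each of the 95 columns sums to between 999999 and 1000001 TPM. The NeuN-sorted nuclei were deposited as natural log values, used here only as above 0 or not. Per the labels' protocols the libraries were made with a modified Smart-seq2 method. Since the total is fixed, more of 1 transcript means a smaller share for the rest.

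Batches are prefixes of the deposited column names: 1 dated prefix each for batches 1 and 2, and the other names for batch 3. Names of batch 3 start with X, M or cell, so a difference within it can mix groups of libraries. Without names in M or cell the list median was 1.24 for ribosomal and -0.50 for general neuronal genes. Differences among the names in X were not tested. Differences of mean log2(TPM + 1), with minus without, were averaged over the 2 batches that had at least 3 libraries on each side. The rule genes were left out. The text names the 20 called genes with the largest and the 20 with the smallest difference. It also names called genes of each list with up to 4 uncalled examples, and the 10 genes most like the rule genes. Unc93b1, Pycard, Ifi30, other unlisted genes beyond their SD, single libraries and a few further values were named after they were seen. For the ribosomal list only the leading and last genes are named. Of 382 list entries 365 were in the table. The members and the 25 lists were chosen with earlier results of these data known. Coordinates are those of GENCODE M21 (GRCm38), in which 21737 symbols were found. Settings other than the main one were tried, and the closing section gives part of them. The rest pooled all libraries without batch, rescaled TPM without microglial and red cell genes, or counted rule genes from 1 TPM. Others left out batch 1, names in M or cell, or libraries under 2000 detected genes. Libraries under 14 neuronal genes, or lacking both Gad1 and Gad2, were also left out in turn. Scripts ran in Python 3.11.15 with numpy 2.4.6, pandas 2.3.3, scipy 1.17.1 and matplotlib 3.10.9. The difference measure was tested on simulated data, with changes larger than the calling threshold put only into widely detected genes. Calls near the threshold or in genes seen in few libraries were not covered. No test was run and no p-value computed. A few genes that the naming rule selects are not reported here.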

Additional observations from a re-analysis of the deposited data

Results flagged for a closer look

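Groups of 4 to 10 libraries allowed a check for a library far from the rest, which left only the 7 libraries of batch 1. Over 26 quantities, each the detected genes or the summed share of a list, 9 had a highest library set apart by a gap of more than 0.568 of the whole range. Chance flags about 1 in 20 groups of normally distributed values. Several of these shares were 0 in some libraries and rest on a few transcripts, so how often chance flags such shares is not known. Library 5 of batch 1 stood apart with 0.3115% of TPM in cytokine genes, the next having 0.0829%, and with 6.489% in ribosomal protein genes, the next having 3.29%. Library 6 stood apart in red cell genes (1.404%), other leukocyte genes (0.03923%) and thalamic relay genes (0.2113%). Library 4 had 2.08% in oligodendrocyte genes. Library 7, the 1 library of batch 1 on neither side, had 0.1507% in endothelial, 0.01771% in pericyte and smooth muscle and 0.004985% in border macrophage genes.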

How the results depend on the processing

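Depth is unknown, so how far low genes could be seen is not known, and the shares of all measured genes called depended on the settings. The main values were 6.80% higher and 2.10% lower, 832.8 more detected genes with microglial RNA and a median of 2.12 over the 3 microglial lists. A pseudocount of 0.1 TPM gave 17.9% higher, 4.90% lower and a median of 3.23, and one of 10 TPM gave 0.995%, 0.258% and 1.16. The ratio of mean TPM gave 7.37% lower and a median of 4.04. The median was 1.65 with no filter and 2.41 for genes above 0 in at least 30 libraries. With all 3 rule genes required, 4.78% were lower and the median was 3.18. With at least 1 enough, 1.63% were higher and 6.59% lower, the median was 1.49, and detected genes differed by -132.4. Detected genes as a covariate gave 4.02% higher and 4.91% lower. Libraries at or above the batch median of detected genes gave 9.11% lower and 165.7 more detected genes. Without batch 2, 17.1% were higher and 3.20% lower, and without batch 3, 10.4% and 9.24%; each then rests on 1 batch, with no sign to match in another.

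Of the alternatives added after seeing the data, centring on the median gene gave 4.24% higher and 3.80% lower. Leaving out libraries over 1% cytokine TPM gave a median of 1.69, and leaving out those over 1% red cell TPM gave 3.27% lower and 506.9 more detected genes. Among the named genes 6 changed sign. Rora had -0.038 by the ratio of mean TPM. In libraries at or above the batch median of detected genes Sgk1 had -0.29, Ier2 -0.36, Junb -0.14, Nfkbiz -0.053 and Rps18 -0.26. The cause was not tested. The median over the 3 microglial lists together and that of the cytokine list stayed above 0 under every setting run. Leaving out the mitochondrial genome's own genes was not run, since none was found in the table by symbol. No paired analysis was possible because the result comes from no test.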
